A study of Mus musculus with 6 samples.

Results

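Amino acid transporters of 7 solute carrier families were followed in resting and activated macrophages that lack miR-155. The members are all probe sets of the array whose single gene symbol begins with Slc1a, Slc3a, Slc6a, Slc7a, Slc36a, Slc38a or Slc43a and a number. This gave 124 of the 45037 probe sets tested, for 61 of the 20967 genes they name. One of the 61, Slc7a6os, matched by its symbol alone and is not a carrier, and its 2 probe sets passed no test. All arrays came from 2 miR-155 KO mice of the strain B6.Cg-Mir155tm1.1Rsky/J on a C57BL/6J background, whose ages were not given in the sources used here. Bone marrow cells were grown with supernatant of L929 cells, the source of M-CSF, replated on day 7 without it, and kept for 24 hours in 1 of 3 conditions with 2 arrays each, 1 per mouse. KO M0 received medium alone. KO M1 received LPS, at 100 ng/ml by the labels (the methods state another concentration), with 20 ng/ml IFN-γ, and KO M2 received 20 ng/ml IL-4. Every condition therefore carried the deletion, and no result here speaks of wild-type cells.

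Cells take up amino acids through carriers of several families. Slc7 cationic carriers bring in arginine and lysine. Other Slc7 proteins are light chains that reach the membrane bound to the heavy chain Slc3a2 (CD98), and exchange one amino acid for another. Slc1 and Slc38 carriers use the sodium gradient to take in small neutral amino acids such as glutamine, and Slc36 and some Slc38 carriers work at the lysosome. In macrophages arginine is the shared substrate of nitric oxide synthase, the enzyme of classical activation, and arginase, the enzyme of alternative activation, and the transcription factor ATF4, which responds to amino acid shortage, is known to raise several carriers.

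The families were unevenly expressed in these cells. Of the 124 member probe sets, 68 had a mean log2 intensity above the median of all probe sets, which corresponds to an intensity of 39.97, and 33 lay in the top 25%. Both counts are close to what these cuts hold of all probe sets by definition. By family, 6 of 22 Slc1a probe sets lay above the median, beside 23 of 26 of Slc38a. RMA gives no detection call, so dim is meant here only relative to that median. At adjusted p under 0.05 (limma, adjusted over all 45037 probe sets), 37 member probe sets of 19 genes changed in at least 1 comparison, and 2 of the 37 were among the 56 at or below the median. The matching shares over all probe sets were not counted, so these counts alone do not set the members apart. Shares beside those of all probe sets are given below for each comparison. The 42 genes without a call include Slc36a4, Slc38a1, Slc38a6 and Slc7a6, whose values are given with their families, and 38 genes with 66 probe sets whose intensities ran from 4.86 to 176. In 22 of these 38, among them the glutamate carriers Slc1a1 and Slc1a3, every value lay below the lowest array median of 37.9.

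IL-4 moved more of the members than LPS plus IFN-γ did against resting cells, and the direct comparison of the activated states moved the most. In KO M1 against KO M0, 9 probe sets of 6 genes rose (7.26% of the members, against 2.76% of all probe sets) and 5 of 4 genes fell (4.03%, against 4.32%). In KO M2 against KO M0, 19 of 8 genes rose (15.3%, against 3.61%) and 6 of 4 genes fell (4.84%, against 3.57%). In KO M1 against KO M2, 7 of 4 genes were higher in KO M1 (5.65%, against 5.31%) and 24 of 11 genes were lower (19.4%, against 7.63%). The shares that rose with IL-4 and that were lower with LPS plus IFN-γ than with IL-4 thus stood above the background, and the shares that fell in KO M1 or were higher in KO M1 than in KO M2 were near it. Of the 9 rises in KO M1, 4 were probe sets of Slc7a2, which leaves 5 without that gene, and the count was 4 without either KO M0 array and 5 without the KO M1 array of mouse 1. Median log2 differences of the members were 0.06, 0.09 and 0.01 in this order of comparisons, beside 0.03, -0.02 and 0.05 for all probe sets. Every call had the same direction within both mice and intensity ranges that did not overlap between the conditions. This is no separate support for the calls, since calling selects differences that are large against the spread between arrays. Ranges that do not overlap also fix the direction within each mouse. Both comparisons against KO M0 use the same control arrays, so the difference between the stimuli is taken only from KO M1 against KO M2.

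The arrays behind these values resembled each other closely within a condition. Correlations of the log2 intensities of both mice were between 0.992 and 0.996, array medians ran from 37.9 to 40.8, and no member probe set differed over 2-fold between the mice in any condition. All 9 macrophage markers looked up, such as Csf1r and Emr1 (F4/80), lay above the median on every array. Their levels differed between the conditions. Cd14, Emr1, Fcgr1 and Mertk were called lower and Mrc1 higher in KO M2 against KO M0, and the summed intensities of all 9 were 79932 and 81294 (KO M0), 82325 and 84217 (KO M1) and 69676 and 65984 (KO M2). Summed intensities over 8 neutrophil markers were 686 and 600.3 (KO M0), 937 and 790.4 (KO M1) and 629 and 449.5 (KO M2), and over 5 fibroblast markers 266 and 159.7, 313 and 252 and 487 and 165. The log2 ratio of 3′ to 5′ control signal, which rises as RNA degrades, was -0.08 and -0.07 (KO M0), 0.09 and 0.15 (KO M1) and 0.20 and 0.11 (KO M2) for Gapdh, and 0.15 and 0.16, 0.19 and 0.19, and 0.32 and 0.23 for actin, lowest in KO M0 for both. The part of these values in the results was not tested, and fewer cells of a type cannot be told apart from less RNA per cell in bulk samples. The Mir155 probe set read 9.3 to 10.8 on every array, and its place relative to the deleted stretch is not known here, so it does not check the genotype.

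Sequence at the start sites is shown first, since Slc7a11, Slc1a4, Slc7a1 and Slc7a5 are known ATF4 targets and are among the members that rose with IL-4. Windows of 300 bases, 250 before and 50 after each start, were read from RefSeq (GRCm38.p6), where 43 of the 61 member genes had 64 windows. The core TGATGNAA of the amino acid response element, to which ATF4 binds with a C/EBP partner, was searched on both strands. It was in 4 of the 64 member windows (6.25%) and in 3.97% of all 32851 windows. Overlapping windows of Slc7a7 that share a site were counted separately. The 3 genes that hold the core are Slc7a11, Slc1a4 and Slc7a7, and each changed in KO M2 against KO M0, the first and second upward and Slc7a7 downward. In that comparison 15.3% of the member probe sets rose and 4.84% fell. Of the 61 member genes, 8 rose and 4 fell there on at least 1 probe set. No core was in the windows of Slc7a1, Slc38a9 and Slc6a9, which also rose with IL-4. Nor was it in those of Slc43a2 and Slc38a10, which had falls called. The stretches of the 3 genes with the core are printed 5′ to 3′ on the gene's strand with the core in capitals. In Slc7a11 (chr3:50443633-50443713, minus strand, bases 100 to 20 before the start) a pair of cores faces each other across 11 bases. In Slc1a4 (chr11:20332710-20332773, minus strand) 1 core spans the start itself. In Slc7a7 (chr14:54417938-54418104, minus strand, before the most upstream of the start sites with a window) the cores begin 141 bases and 1 base before the start.
Slc7a11: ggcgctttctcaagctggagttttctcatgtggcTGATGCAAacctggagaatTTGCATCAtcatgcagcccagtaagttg
Slc1a4: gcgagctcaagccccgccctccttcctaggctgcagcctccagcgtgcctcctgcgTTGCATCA
Slc7a7: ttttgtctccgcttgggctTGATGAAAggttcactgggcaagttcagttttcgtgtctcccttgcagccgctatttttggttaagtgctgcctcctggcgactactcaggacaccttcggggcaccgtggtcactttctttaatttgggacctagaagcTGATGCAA
All 3 genes hold the form TGATGCAA, read on the opposite strand in Slc1a4 and on either strand in Slc7a11, and the more distant match of Slc7a7 is TGATGAAA. A match describes the letters in this window only.

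Other motifs were searched in the same windows. TTC and GAA 4 bases apart, the spacing of STAT6 downstream of IL-4, was in 3 of 64 member windows (4.69%, against 6.95% of all windows), in Slc1a7, Slc43a2 and Slc6a19. The antioxidant response element TGACNNNGC, bound by Nrf2, was in 11 (17.2%, against 12.4%), among them windows of Slc7a1, Slc38a2, Slc36a1 and Slc6a9 but not the Slc7a11 window, and the PU.1 core GAGGAA was in 20 (31.2%, against 28.3%). Slc43a2, which fell with IL-4, holds the STAT6 spacing 211 bases before the start of the second of its windows (chr11:75531872-75531942, plus strand). It is printed with the match in capitals.
Slc43a2: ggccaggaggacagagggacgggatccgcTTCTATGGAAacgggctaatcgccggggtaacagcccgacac
These shares stayed within a few percentage points of those over all windows and carry no test.

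The largest changes of all members were those of Slc7a2, the cationic carrier CAT2, which supplies arginine to macrophages (chr8:40862341-40922070; RefSeq positions are in GRCm38.p6 throughout). It was dim at rest, rose with LPS plus IFN-γ and rose far more with IL-4. Its brightest probe set, 1436555_at, read 20.0 and 26.2 (KO M0), 317 and 223 (KO M1) and 2949 and 2639 (KO M2). KO M0 lay below the array median and the 3 conditions were far apart on both mice. The log2 difference was 3.54 ± 0.20 (SE) for KO M1 against KO M0 (adjusted p = 5.71e-05), 6.93 ± 0.20 (SE) for KO M2 against KO M0 (adjusted p = 8.41e-07) and -3.39 ± 0.20 (SE) for KO M1 against KO M2 (adjusted p = 1.87e-05), each with n = 2 arrays per condition, so that KO M2 was 10.5-fold above KO M1. All 4 Slc7a2 probe sets passed in all 3 comparisons. Over the other 3, the rise was between 1.12 and 3.54 in KO M1 and between 3.27 and 5.92 in KO M2 on the log2 scale. The dimmest, 1450703_at, was at 10.6 and 9.36 in KO M0 and lost its KO M1 call without either KO M0 array or without the KO M1 array of mouse 1 (adjusted p = 0.124, 0.177 and 0.0653). Because KO M0 was so dim, the fold against it depends on the scale: for 1436555_at it was 122 in KO M2 and 11.6 in KO M1, and 51.3 and 5.43 after 32 was added to every intensity.

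Some arginine-using enzymes differed between the stimuli in the same cells. Nos2, the inducible nitric oxide synthase, read 36.8 and 38.8 (KO M0), 51.6 and 43.7 (KO M1) and 34.8 and 46.7 (KO M2) and passed no test, with log2 differences of 0.33 for KO M1 against KO M0 (adjusted p = 0.315) and 0.24 for KO M1 against KO M2 (adjusted p = 0.428). Arg1, arginase 1, read 10.4 and 8.78 (KO M0), 14.6 and 22.6 (KO M1) and 9348 and 7191 (KO M2) (log2 difference of KO M2 against KO M0 9.75, adjusted p = 1.81e-07). Ass1, which rebuilds arginine from citrulline, read 483 and 778 (KO M0), 2453 and 2511 (KO M1) and 426 and 769 (KO M2), so the KO M1 arrays stood above all others (log2 difference against KO M0 2.02, adjusted p = 0.00424). Of 14 genes of arginine use measured, 3 rose (Arg1, Arg2 and Ass1) and 3 fell (Oat, Sat1 and Sms) in KO M1 against KO M0. These were 21.4% each, against 2.76% and 4.32% of all probe sets. Arg1 stayed below the lowest array median of 37.9 on every KO M0 and KO M1 array. In KO M2, 3 rose (Arg1 and the polyamine enzymes Odc1 and Srm; 21.4%, against 3.61%) and none was called lower by limma (0 at unadjusted p under 0.05). In KO M1 against KO M2, 2 were higher (14.3%, against 5.31%) and 6 lower (42.9%, against 7.63%). The list's median log2 difference was -0.02, 0.09 and -0.20 in these comparisons.

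Slc7a1, the cationic carrier CAT1 that most cells use for arginine (chr5:148327410-148399904), rose with IL-4. The probe set 1454991_at read 408 and 699 (KO M0), 795 and 579 (KO M1) and 1389 and 1768 (KO M2). KO M2 stood above the other conditions, and KO M0 and KO M1 overlapped. Its log2 difference was 1.55 ± 0.26 (SE) for KO M2 against KO M0 (adjusted p = 0.00942) and -1.21 ± 0.26 (SE) for KO M1 against KO M2 (adjusted p = 0.0171), while KO M1 against KO M0 gave 0.35 with a 95% interval of -0.25 to 0.94 (adjusted p = 0.528). Probe set 1454992_at gave 1.50 and -1.38 with calls in the same comparisons, and the dim 1421533_at, at 31.7 to 45.4, passed none. Both KO M2 calls against KO M0 were lost without the KO M0 array of mouse 1 (adjusted p = 0.0674 and 0.0743) or the KO M2 array of mouse 2 (0.0749 and 0.0741). Against KO M1 they were lost without the latter array (0.132 and 0.0714), and 1454991_at also without the KO M1 array of mouse 2 (0.0682).

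Slc7a4, named for its likeness to the cationic carriers and with no settled transport function, went down in KO M1. Probe set 1426069_s_at read 68.3 and 65.8 (KO M0), 35.1 and 44.3 (KO M1) and 97.8 and 95.9 (KO M2), with a log2 difference of -0.76 ± 0.14 (SE) for KO M1 against KO M0 (adjusted p = 0.0142) and -1.30 ± 0.14 (SE) for KO M1 against KO M2 (adjusted p = 0.000479). The call against KO M0 was lost without either KO M0 array (adjusted p = 0.124 and 0.0928) or without the KO M1 array of mouse 1 (0.0508). Of its other probe sets, 1426068_at was lower in KO M1 than in KO M2 by 0.74 (adjusted p = 0.0183), a call lost without the KO M1 or the KO M2 array of mouse 1 (0.0623 and 0.109), and 1436776_x_at passed none.

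**Figure D1:**
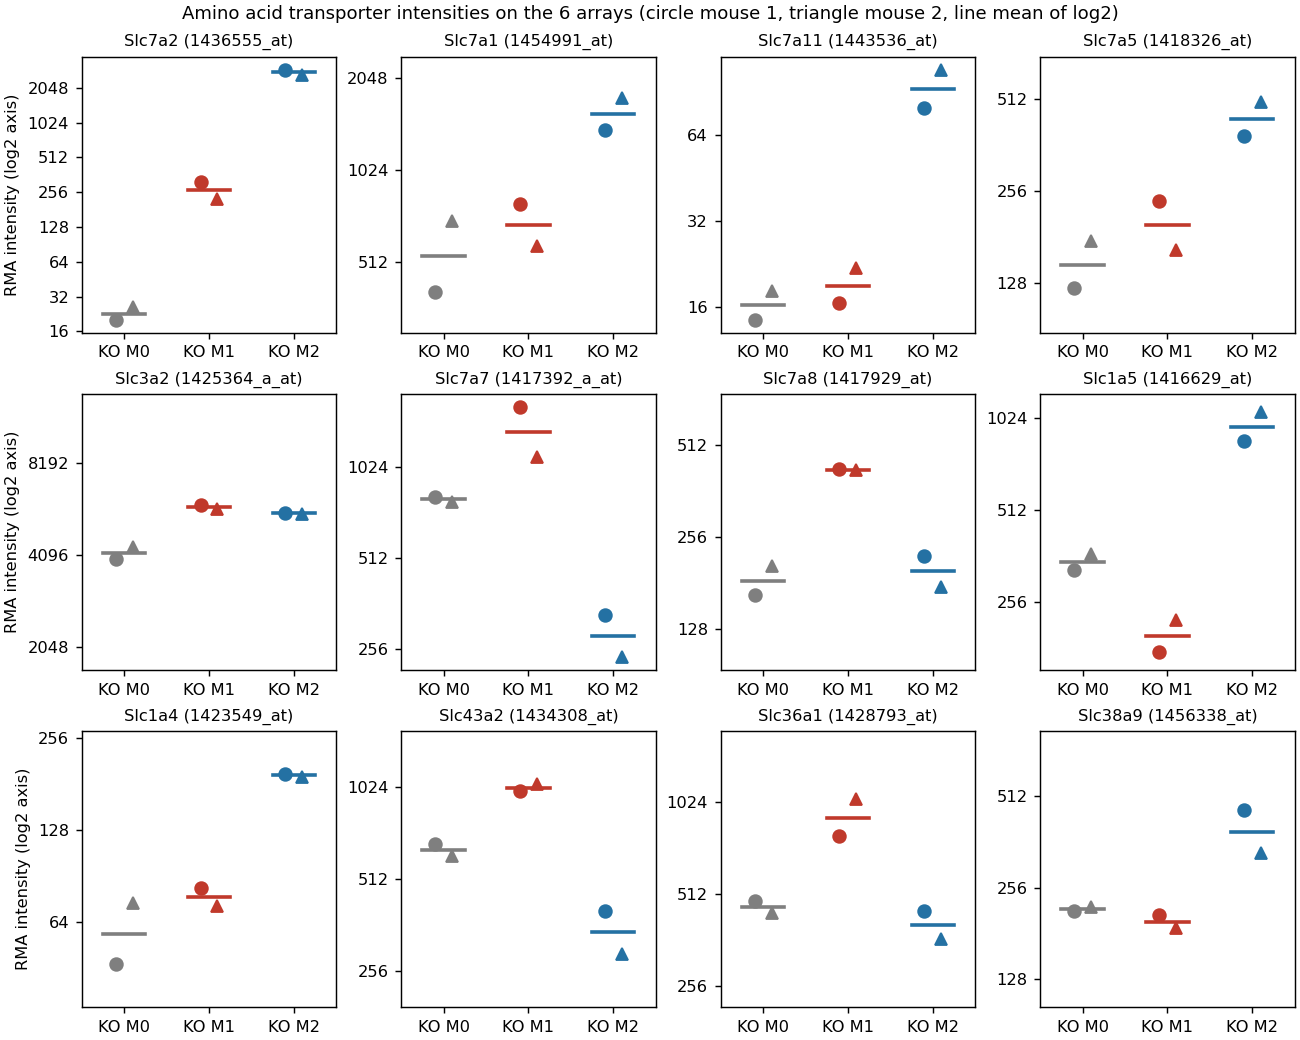
RMA intensity (log2 axis, with its own range in each panel) of 12 transporter probe sets on each array, by condition. Circles are mouse 1, triangles mouse 2 and lines the mean of the log2 values. Slc7a2 climbs from 20.0 and 26.2 in KO M0 to 2949 and 2639 in KO M2, and Slc1a5 and Slc43a2 lie on opposite sides of KO M0 in the activated conditions.

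The light chains that share Slc3a2 separated by stimulus. Slc7a11 and Slc7a5 were higher with IL-4, Slc7a8 with LPS plus IFN-γ, and Slc7a7 was lower with IL-4, while the shared heavy chain moved little. Slc3a2 (chr19:8706882-8723369; 1425364_a_at) read 3979 and 4357 (KO M0), 5999 and 5808 (KO M1) and 5626 and 5618 (KO M2). Both activated conditions lay above KO M0, by 0.50 ± 0.12 (SE) (adjusted p = 0.0407) in KO M1 and by 0.43 ± 0.12 (SE) (adjusted p = 0.0706) in KO M2, and KO M1 differed from KO M2 by 0.07 with a 95% interval of -0.20 to 0.34. The KO M1 call was lost without any 1 of the 6 arrays (adjusted p between 0.0674 and 0.26) and with the mouse as a block (adjusted p = 0.0764).

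Slc7a11 is xCT, which brings in cystine for glutathione and lets glutamate out (chr3:50364936-50499087). Probe set 1443536_at read 14.4 and 18.3 (KO M0), 16.5 and 21.9 (KO M1) and 79.5 and 108 (KO M2), below the array median in KO M0 and KO M1 and above it in KO M2. It rose in KO M2 by 2.52 ± 0.20 (SE) (adjusted p = 0.00023) and was lower in KO M1 than in KO M2 by 2.29 (adjusted p = 0.000162). With 32 added to every intensity these log2 differences were 1.37 and -1.29. The brighter 1420413_at read 44.1 and 86.7 (KO M0), 92.8 and 159 (KO M1) and 237 and 378 (KO M2), in the order KO M0, KO M1, KO M2 on both mice, with mouse 2 above mouse 1 throughout. Its rise in KO M2 was 2.28 ± 0.36 (SE) (adjusted p = 0.00731), lost without the KO M0 array of mouse 1 or the KO M2 array of mouse 2 (adjusted p = 0.0641 and 0.0605). KO M1 against KO M0 gave 0.98 ± 0.36 (SE) (adjusted p = 0.169) and KO M1 against KO M2 -1.30 ± 0.36 (SE) (adjusted p = 0.0501), and both passed with the mouse as a block (adjusted p = 0.00801 and 0.00112). Among 15 other genes of cystine and glutathione, none was called in KO M2 against KO M0 by limma (2 higher and 1 lower at unadjusted p under 0.05). Of all probe sets, 3.61% were called higher and 3.57% lower there. Gsr and Hmox1 rose in KO M1 against KO M0 (13.3%, against 2.76%). Gsr, Hmox1 and Keap1 were higher in KO M1 than in KO M2 (20%, against 5.31%). With 15 genes these shares are coarse.

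Slc7a5, LAT1, exchanges glutamine for leucine and other large neutral amino acids (chr8:121881146-121907686). Its probe set 1418326_at read 123 and 175 (KO M0), 237 and 164 (KO M1) and 389 and 502 (KO M2), with KO M2 above all other arrays. The log2 difference was 1.59 ± 0.23 (SE) for KO M2 against KO M0 (adjusted p = 0.00453) and -1.16 ± 0.23 (SE) for KO M1 against KO M2 (adjusted p = 0.0113), and for KO M1 against KO M0 0.43 with a 95% interval of -0.10 to 0.95. The first call was lost without the KO M0 array of mouse 1 (adjusted p = 0.0541) and the second without the KO M2 array of mouse 2 (0.0985).

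Slc7a7, y+LAT1, lets cationic amino acids such as arginine out of the cell in exchange for neutral ones (chr14:54369442-54420068). Probe set 1417392_a_at read 814 and 782 (KO M0), 1615 and 1103 (KO M1) and 331 and 240.3 (KO M2). The 3 conditions did not overlap, with KO M1 highest and KO M2 lowest. It fell in KO M2 by 1.50 (adjusted p = 0.00376) and was 4.73-fold higher in KO M1 than in KO M2 (log2 difference 2.24 ± 0.21 (SE), adjusted p = 0.000206). KO M1 against KO M0 gave 0.74 ± 0.21 (SE) (adjusted p = 0.0753), which passed with the mouse as a block (adjusted p = 0.0413). The second probe set, 1447181_s_at, gave -1.85 and 2.32 in the comparisons with KO M2 (adjusted p = 0.00119 and 0.00016).

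Slc7a8, LAT2, a light chain for neutral amino acids of many sizes (chr14:54722215-54781886), rose in KO M1. Its probe set 1417929_at read 166 and 205 (KO M0), 426 and 423 (KO M1) and 223 and 176 (KO M2), with KO M1 above all other arrays. The log2 difference was 1.20 ± 0.16 (SE) against KO M0 (adjusted p = 0.00293) and 1.10 ± 0.16 (SE) against KO M2 (adjusted p = 0.00236), and KO M2 against KO M0 gave 0.10 with a 95% interval of -0.26 to 0.47. Slc7a6, y+LAT2, a close relative of Slc7a7 in function, read 93.6 and 108 (KO M0), 154 and 119 (KO M1) and 94.8 and 118 (KO M2) on 1460541_at and passed no test, with KO M2 against KO M0 at 0.08 (adjusted p = 0.875) and KO M1 against KO M2 at 0.35 (95% interval -0.04 to 0.75). The other 6 Slc3a and Slc7a genes grouped with these by family, and not by shared binding to Slc3a2, had no call. They are Slc3a1, Slc7a9, Slc7a10, Slc7a12, Slc7a13 and Slc7a15.

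**Figure D2:**
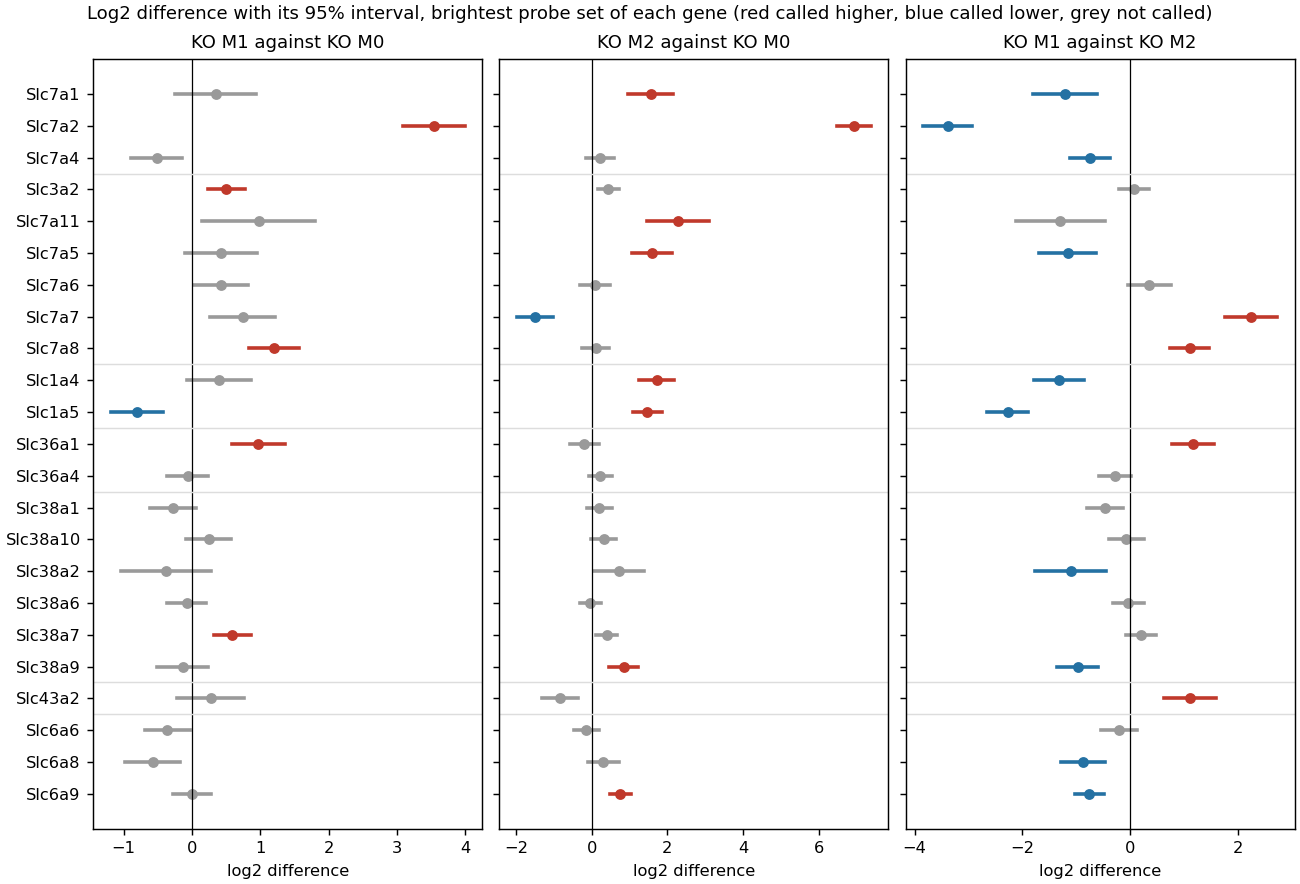
Log2 difference (points) with its 95% interval (lines) for the brightest probe set of 23 transporter genes in each comparison, ordered by family and on separate horizontal scales. Red marks a higher call, blue a lower call and grey no call. In KO M1 against KO M2, Slc7a2 is lowest at -3.39 and Slc7a7 highest at 2.24.

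Both Slc1 carriers of small neutral amino acids also rose with IL-4. Slc1a5, ASCT2, the main glutamine carrier of many dividing cells (chr7:16781334-16798274), moved in opposite directions with the stimuli. Its probe set 1416629_at read 325 and 368 (KO M0), 176 and 223 (KO M1) and 859 and 1068 (KO M2), so the 3 conditions did not overlap. It fell in KO M1 by 0.81 (adjusted p = 0.0235), rose in KO M2 by 1.47 ± 0.17 (SE) (adjusted p = 0.00131) and was 4.84-fold lower in KO M1 than in KO M2 (log2 difference -2.28 ± 0.17 (SE), adjusted p = 5.75e-05). The fall was lost without either KO M0 array (adjusted p = 0.104 and 0.178) or the KO M1 array of mouse 1 (0.0855). The dim 1440379_at, at 35.9 to 44.4, passed no test.

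Slc1a4, ASCT1, carries alanine, serine and cysteine (chr11:20302180-20332713). Probe set 1423549_at read 46.6 and 74.1 (KO M0), 82.5 and 72.3 (KO M1) and 196 and 191 (KO M2), with KO M2 far above the rest. It rose in KO M2 by 1.72 ± 0.20 (SE) (adjusted p = 0.00165) and was lower in KO M1 than in KO M2 by 1.33 (adjusted p = 0.00323). Its probe sets 1456003_a_at and 1423550_at rose in KO M2 by 0.96 and 1.18 and differed between the stimuli, lower in KO M1, by 0.80 and 0.91. Without the KO M2 array of mouse 2 these 4 calls were lost (adjusted p = 0.0518, 0.16, 0.0717 and 0.288), and both rises also without the KO M0 array of mouse 1 (0.0782 and 0.208). The last of them, of 1423550_at between the stimuli, was lost as well without the KO M1 array of mouse 2 (0.179), without the KO M2 array of mouse 1 (0.051) and with the mouse as a block (0.0638).

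Slc38a2, SNAT2, the sodium-coupled carrier known to adapt to amino acid supply, was called between the stimuli and not against KO M0. Only 1 of its 3 probe sets, 1426722_at, had a call. It read 499 and 851 (KO M0), 631 and 395 (KO M1) and 943 and 1229 (KO M2) and was lower in KO M1 than in KO M2 by 1.11 (adjusted p = 0.0382), while KO M2 against KO M0 gave 0.72 ± 0.29 (SE) (adjusted p = 0.206). The call was lost without the KO M1 array of mouse 2, without either KO M2 array (adjusted p = 0.148, 0.079 and 0.227) and with the mouse as a block (0.0636). Slc38a1, SNAT1, read 622 and 679 (KO M0), 475 and 604 (KO M1) and 748 and 736 (KO M2) on 1454764_s_at and passed no test, with KO M1 against KO M2 at -0.47 (adjusted p = 0.073).

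Among the lysosomal carriers, Slc38a9 rose with IL-4, and Slc36a1 and Slc38a7 rose with LPS plus IFN-γ. Slc38a7 was not called between the stimuli. Slc38a9, an arginine sensor that signals to mTORC1 from the lysosome (chr13:112656189-112738752), rose with IL-4 on 5 of its 7 probe sets and was lower in KO M1 than in KO M2 on all 7. Its brightest probe set, 1456338_at, read 215 and 221 (KO M0), 208 and 189 (KO M1) and 458 and 332 (KO M2). KO M2 was high on both mice, and KO M0 and KO M1 lay close together. Its log2 difference was 0.84 ± 0.16 (SE) for KO M2 against KO M0 (adjusted p = 0.0187) and -0.98 ± 0.16 (SE) for KO M1 against KO M2 (adjusted p = 0.00517). The other 4 probe sets that rose gave 0.95 to 1.16, and 1455612_at and 1454283_at gave 0.77 and 0.42 (adjusted p = 0.051 and 0.16). Of the 5 rises, those of 1447784_x_at and 1449791_x_at held without any 1 array. Without the KO M2 array of mouse 1, 1436456_at and 1456338_at were lost (adjusted p = 0.0863 and 0.102), as they were without the KO M0 array of mouse 1 (0.0951 and 0.145), and without the KO M0 array of mouse 2 1456338_at and 1455360_at were (0.113 and 0.0572). Between the stimuli, 1455612_at was lost without the KO M2 array of mouse 1 (0.0646) and 1454283_at without that array, the KO M2 array of mouse 2 or the KO M1 array of mouse 2 (0.0749, 0.0759 and 0.056).

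Slc36a1, PAT1, which exports small amino acids from the lysosome with protons (chr11:55204322-55236330), rose in KO M1. Its probe set 1428793_at read 484 and 445 (KO M0), 792 and 1046 (KO M1) and 451 and 365 (KO M2). KO M1 was higher by 0.97 ± 0.17 (SE) on the log2 scale against KO M0 (adjusted p = 0.011) and 1.17 ± 0.17 (SE) against KO M2 (adjusted p = 0.00239). The call against KO M0 was lost without either KO M0 array (adjusted p = 0.075 and 0.101). Slc38a7, a lysosomal glutamine exporter, read 446 and 494 (KO M0), 714 and 701 (KO M1) and 615 and 619 (KO M2) on 1455295_at and was higher by 0.59 ± 0.12 (SE) in KO M1 than at rest (adjusted p = 0.022), a call lost without either KO M0 array (0.185 and 0.0864) or the KO M1 array of mouse 1 (0.0652). In KO M2 it gave 0.39 ± 0.12 (SE) (adjusted p = 0.0987), and KO M1 against KO M2 gave 0.20 (adjusted p = 0.359). Slc36a4 (577 to 802 over the arrays) and Slc38a6 (827 to 924) were evenly expressed and passed no test.

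Slc38a10 probe sets disagreed. 1429979_a_at read 405 and 428 (KO M0), 231 and 144 (KO M1) and 124 and 229.7 (KO M2) and fell in both activated conditions (log2 difference -1.19 ± 0.29 (SE) in KO M1, adjusted p = 0.0481, and -1.30 ± 0.29 (SE) in KO M2, adjusted p = 0.0343). Its brightest probe set, 1427294_a_at, read 1773 and 1583 (KO M0), 1827 and 2159 (KO M1) and 2255 and 1931 (KO M2) and was not called, nor were the other 5. Both calls were lost with the mouse as a block (adjusted p = 0.0846 and 0.0651) and without either KO M0 array (0.21 and 0.238 in KO M1, 0.182 and 0.187 in KO M2), and also without the KO M1 array of mouse 2 (0.152) and the KO M2 array of mouse 1 (0.174), respectively.

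The list of lysosomal amino acid sensing held 26 measured genes. Of these, 1 rose (3.85%, against 2.76% of all probe sets) and 2 fell (7.69%, against 4.32%) in KO M1. In KO M2 none was called higher by limma (5 at unadjusted p under 0.05), against 3.61% of all, and 3 fell (11.5%, against 3.57%). Between the stimuli 3 were lower with LPS plus IFN-γ (11.5%, against 7.63%). Counts of 1 to 3 genes make these shares coarse. Sesn1, a sestrin that restrains mTORC1 when leucine is short, fell in both conditions (log2 difference -1.39 in KO M1, adjusted p = 0.00146, and -1.61 in KO M2, adjusted p = 0.000749). Rragd, a Rag GTPase of the lysosomal surface, read 175 and 182 (KO M0), 65.2 and 76.5 (KO M1) and 265 and 230.1 (KO M2) and fell in KO M1 by 1.34 (adjusted p = 0.00084). The list's median log2 difference was -0.05, 0.09 and -0.08 in the order of the comparisons above.

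Slc43a2, LAT4, a uniporter of branched-chain and aromatic amino acids (chr11:75529915-75577575), was higher in KO M1 than in KO M2 on all 3 probe sets. Probe set 1434308_at read 666 and 608 (KO M0), 993 and 1048 (KO M1) and 403 and 291 (KO M2), with KO M1 above and KO M2 below KO M0. It was higher by 0.68 ± 0.17 (SE) in KO M1 than at rest (adjusted p = 0.0448), fell in KO M2 by 0.89 (adjusted p = 0.0147) and was 2.98-fold higher in KO M1 than in KO M2 (log2 difference 1.57 ± 0.17 (SE), adjusted p = 0.000395). The rise was lost with the mouse as a block (adjusted p = 0.0588) and without any 1 KO M0 or KO M1 array (adjusted p between 0.0866 and 0.259). The fall was lost without either KO M0 array (0.138 and 0.0806) or the KO M2 array of mouse 2 (0.0729). Probe set 1456940_at fell in KO M2 by 1.58 (adjusted p = 0.000987) and 1439965_at, the brightest, gave -0.84 (adjusted p = 0.0511). Between the stimuli they gave 1.46 and 1.11 (adjusted p = 0.000699 and 0.00951), and the latter was lost without the KO M2 array of mouse 2 (0.0504). Slc43a1 and Slc43a3 had no call.

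The Slc6 family, which carries neurotransmitters, taurine, creatine and glycine, held calls for 3 genes on 4 of 36 probe sets. Of the 36, 2 fell in KO M1 (5.56%, against 4.32% of all probe sets), and 1 rose and 1 fell in KO M2 (2.78% each, against 3.61% and 3.57%). Between the stimuli 2 were lower in KO M1 (5.56%, against 7.63%), so these shares lay near the background. Slc6a6, the taurine carrier, was among the brightest members. Its probe set 1421346_a_at read 4723 and 3778 (KO M0), 2820.3 and 2716 (KO M1) and 3261 and 2877 (KO M2) and fell in KO M1 by 0.61 (adjusted p = 0.0419), a call lost without any 1 array (adjusted p between 0.0617 and 0.282). The dimmer 1449751_at fell in KO M1 by 0.62 and in KO M2 by 1.05 (adjusted p = 0.0376 and 0.00354). The first was lost with the mouse as a block (0.0722) and without any 1 KO M0 or KO M1 array (0.0757 to 0.254), and the second without the KO M0 array of mouse 1 (0.0531). The brightest Slc6a6 probe set, 1437149_at, gave -0.36 in KO M1 and -0.15 in KO M2 and passed neither test.

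Slc6a8, the creatine carrier, read 1264 and 1329 (KO M0), 739 and 1026 (KO M1) and 1765 and 1451 (KO M2) on 1417116_at and was lower in KO M1 than in KO M2 by 0.88 (adjusted p = 0.0123), lost without the KO M2 array of mouse 1 (adjusted p = 0.0884). The other of the 2 Slc6a8 probe sets had no call. Slc6a9, the glycine carrier GlyT1, rose with IL-4. Its probe set 1417636_at read 106 and 115 (KO M0), 109.9 and 110.4 (KO M1) and 181 and 191 (KO M2). KO M2 was higher by 0.76 ± 0.12 (SE) than KO M0 (adjusted p = 0.0072), and KO M1 was lower than KO M2 by 0.76 (adjusted p = 0.00377). The rise was lost without the KO M0 array of mouse 1 (0.0884) or the KO M2 array of mouse 2 (0.0523), and its second probe set, 1431812_a_at, stayed at 116 to 127 with no call.

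Many genes of the ATF4 response were higher with IL-4 on the same arrays as Slc7a11, Slc7a5, Slc7a1 and Slc1a4, which the ATF4 pathway is known to raise. The part of ATF4 in the rises of these carriers was not tested. Of 24 such genes measured, 15 rose in KO M2 against KO M0 (62.5%, against 3.61% of all probe sets). None was called lower by limma (1 at unadjusted p under 0.05), and the median log2 difference was 0.95, against -0.02 for all probe sets. In KO M1 against KO M0, 2 rose (8.33%, against 2.76%) and 1 fell (4.17%, against 4.32%), with a median of 0.15. In KO M1 against KO M2, 2 were higher (8.33%, against 5.31%) and 11 lower (45.8%, against 7.63%), with a median of -0.71. Psat1, an enzyme of serine synthesis, read 580.2 and 758 (KO M0), 173 and 202 (KO M1) and 1830.2 and 2211 (KO M2), with the 3 conditions apart (log2 difference 1.60 in KO M2, adjusted p = 0.000987, and -1.83 in KO M1, adjusted p = 0.000527). Atf4 itself read 1874 and 2737 (KO M0), 4341 and 3207 (KO M1) and 3746 and 4829 (KO M2), with both activated conditions above KO M0. It rose in KO M2 by 0.91 (adjusted p = 0.046), and KO M1 gave 0.72 (adjusted p = 0.101). Between the stimuli Atf4 was not called, with KO M1 against KO M2 at -0.19 (adjusted p = 0.658). Chac1, which breaks down glutathione and is an ATF4 target, rose in KO M2 by 1.74 (adjusted p = 0.00402), and Nupr1 and Cebpb rose in KO M1 instead (2.54 and 1.48, adjusted p = 0.000956 and 0.000918).

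Cytosolic aminoacyl-tRNA synthetases, which load amino acids onto tRNA, went the same way. Of 20 measured, 11 rose in KO M2 against KO M0 (55%, against 3.61% of all probe sets). None was called lower there by limma (0 at unadjusted p under 0.05), and the median log2 difference was 0.69. None was called in KO M1 against KO M0 (3 higher at unadjusted p under 0.05, median 0.06), and between the stimuli 6 were lower with LPS plus IFN-γ (30%, against 7.63%). Rars, the arginine enzyme, read 763 and 849 (KO M0), 836 and 632 (KO M1) and 2041 and 2201 (KO M2) (log2 difference in KO M2 1.40, adjusted p = 0.00129).

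The mice differed within conditions on these genes, in opposite directions. Mouse 2 was above mouse 1 in KO M0 for 14 of the 15 probe sets of Slc7a1, Slc7a5, Slc7a11, Slc1a4, Slc1a5, Slc38a9 and Slc6a9 that rose with IL-4, for all 20 synthetases and for 19 of the 24 ATF4 genes (median log2 difference of mouse 2 against mouse 1 of 0.34, 0.25 and 0.39). In KO M1 it was below mouse 1 for 9, 15 and 16 of them (median -0.15, -0.21 and -0.14), and in KO M2 above it for 9, 20 and 21 (median 0.10, 0.20 and 0.33). Over all 124 member probe sets the median of this difference between the mice was -0.01, 0.05 and -0.08. Within mouse 1 the rise of Slc7a1 1454991_at with IL-4 was 1.77 and within mouse 2 1.34, and those of Slc7a5 were 1.66 and 1.52. The part of this difference in the results was not tested.

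**Figure D3:**
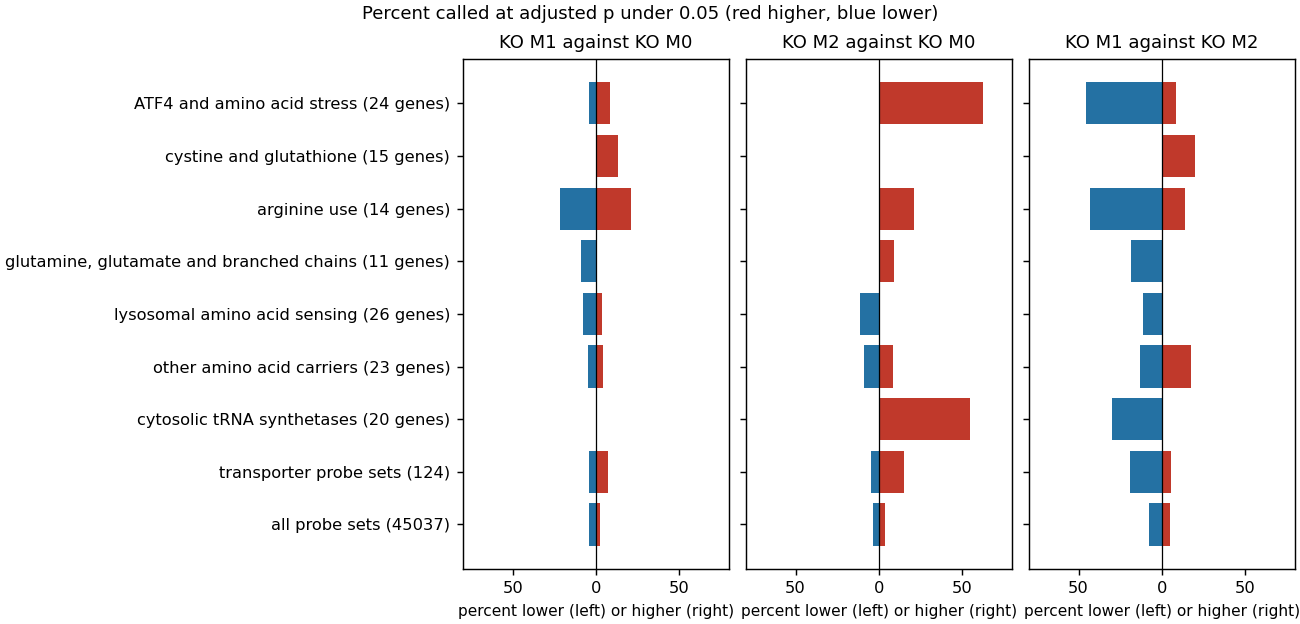
Percent of each list called lower (blue, drawn to the left) or higher (red, drawn to the right) at adjusted p under 0.05 in the 3 comparisons. Lists count genes by their brightest probe set, and the last bars count probe sets. In KO M2 against KO M0, 15 of 24 ATF4 genes and 11 of 20 synthetases rose, beside 15.3% of the transporter probe sets and 3.61% of all.

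Of 23 amino acid carriers of other families, 1 rose and 1 fell in KO M1 (4.35% each, against 2.76% and 4.32% of all probe sets). In KO M2, 2 rose and 2 fell (8.7% each, against 3.61% and 3.57%). Between the stimuli 4 were higher (17.4%, against 5.31%) and 3 lower (13.0%, against 7.63%) with LPS plus IFN-γ. Slc16a10, TAT1, the carrier of aromatic amino acids, read 1138 and 1235 (KO M0), 1215 and 1237 (KO M1) and 281 and 343 (KO M2) and fell in KO M2 by 1.93 (adjusted p = 0.000116). Slc25a13, the mitochondrial aspartate and glutamate exchanger citrin, read 282 and 269.8 (KO M0), 93.6 and 110.2 (KO M1) and 595 and 675 (KO M2), falling in KO M1 and rising in KO M2 (-1.44 and 1.20, adjusted p = 0.000558 and 0.00132). Among 11 genes of glutamine, glutamate and branched-chain metabolism, only Glul, glutamine synthetase, was called in KO M1 against KO M0. It fell by 0.84 (adjusted p = 0.0186), which made 9.09% of the list, against 4.32% of all probe sets. Only Got1 was called in KO M2 against KO M0, rising by 0.68 (adjusted p = 0.0154), again 9.09%, against 3.61%. Between the stimuli Got1 and Prodh were lower with LPS plus IFN-γ (18.2%, against 7.63%). With 11 genes these shares are coarse.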

How the data were processed

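Total RNA of the 6 KO cultures was hybridised to Affymetrix Mouse 430 2.0 arrays. The authors' deposited values are linear intensities after RMA (its version: not given in the sources used here), held in 2 tables that differed by at most 5e-06. Means, folds and p-values of the authors' own comparisons in the deposited table were not used.

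Log2 intensities of 45037 probe sets (64 control probe sets left out) were fitted with R 4.3.3 and limma 3.58.1, using lmFit and eBayes for the 3 conditions with no block (3 residual and 5.49 prior degrees of freedom). Two-sided p-values had Benjamini-Hochberg adjustment across all probe sets tested, and adjusted p under 0.05 was called. The fit was also run on simulated data with known changes in KO M1, independent noise on each array and no mouse effect. That run does not bear on effects shared by arrays of the same mouse. Only 2 arrays per condition limit the precision. The p-values rest on the spread between arrays within a condition, moderated over all probe sets, in which mouse, culture and array differences are mixed.

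Named genes are members with a call, those whose brightest probe set lies in the top 25% of all, the Slc3a2 complex and the cationic carriers Slc7a1 and Slc7a2. Members and lists were chosen with earlier results of these data known. List genes are represented by their brightest probe set. IDs ending in _a_at, _s_at or _x_at can match several transcripts or genes.

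By the sample titles, arrays of the same number come from the same mouse. Same-numbered deviations from the condition means correlated at -0.162 (KO M1 with KO M0), 0.209 (KO M2 with KO M0) and -0.215 (KO M1 with KO M2) over all probe sets. The numbering of the KO M1 arrays rests on the titles alone, and the values with the mouse as a block depend on it. Alternatives covered normalization, centring, offset, dim probe sets, moderation, the replicate block, single arrays left out, the methods' t-test and how members were counted. All 61 member symbols are current in RefSeq (GRCm38.p6), and Slc38a11, Slc38a8 and Slc6a21 were not analysed here. No promoter window was listed for Slc7a2, Slc7a5, Slc1a5, Slc7a4, Slc6a6 and Slc6a8. Results for 1 motif and 1 member are not reported here.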

Additional observations from a re-analysis of the deposited data

Results flagged for a closer look

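Slc1a5 (probe set 1416629_at), the glutamine carrier, was called lower with LPS plus IFN-γ and higher with IL-4 against KO M0, and the direct comparison of KO M1 with KO M2 gave a log2 difference of -2.28 (limma, adjusted p = 5.75e-05). Slc43a2 (probe set 1434308_at), the carrier of branched-chain and aromatic amino acids, was called higher in KO M1 and lower in KO M2, with a log2 difference of 1.57 between KO M1 and KO M2 (adjusted p = 0.000395). Both were singled out because the stimuli moved them in opposite directions, and both comparisons against KO M0 share their control arrays. The difference between KO M1 and KO M2 stayed past the threshold without any 1 array and with the mouse as a block for both probe sets. The calls against KO M0 held less well: the fall of Slc1a5 in KO M1 was lost without either KO M0 array or the KO M1 array of mouse 1 (adjusted p = 0.104, 0.178 and 0.0855), the rise of Slc43a2 with the block (0.0588) and without any 1 KO M0 or KO M1 array (0.0866 to 0.259), and its fall in KO M2 without either KO M0 array or the KO M2 array of mouse 2 (0.138, 0.0806 and 0.0729). Groups of 2 arrays are too small for a search for single outlying samples.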

How the results depend on the processing

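Counts of called probe sets are given in the order higher and lower in KO M1 against KO M0 (9 and 5), KO M2 against KO M0 (19 and 6) and KO M1 against KO M2 (7 and 24). Leaving out 1 array gave 4 to 11 and 0 to 4, 10 to 21 and 3 to 8, and 6 to 7 and 17 to 25. Without the KO M0 array of mouse 1 they were 4 and 0, 10 and 3, and 7 and 25. Without that of mouse 2 they were 4 and 0, 17 and 4, and 7 and 25. Without the KO M1 array of mouse 1 the first pair was 5 and 2, and without that of mouse 2 it was 11 and 3. With the replicate block they were 9 and 3, 19 and 5, and 7 and 23. The block took 7 of the 70 calls of named probe sets and added 3, each given with its gene, and changed no other call. With the KO M1 numbers crossed, a pairing added after the data were seen, they were 9 and 7, 22 and 8, and 7 and 25. An offset of 32 lowered the falls in KO M1 to 2. Requiring a fold of at least 2 left 5 and 1 in KO M1. IDs without a suffix letter held 2 of the falls in KO M1 and 3 of those in KO M2. Counting the 61 genes by their brightest probe set gave 5 and 1, 8 and 1, and 4 and 10. Without Slc7a2, also added later, 5 rose in KO M1. The methods' t-test gave 10 and 5, 20 and 7, and 8 and 16 unadjusted, and 0 in each after Benjamini-Hochberg.

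Quantile normalization, centring, the second table, a filter on dim probe sets, another moderation and fits of only the conditions compared moved no count by more than 1.5 times. Of 70 calls of named probe sets, 0 reversed, and 36 stayed past the threshold in every alternative other than the t-test. Without 1 array, 34 were lost in at least 1 fit, and the largest shift was 0.49 on the log2 scale. The causes were not tested. With 2 arrays per condition, small differences cannot be told from none, and dim probe sets compress or inflate folds.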
